A study of Homo sapiens with 24 samples.

Results

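The genes described here are the 4 Argonaute genes AGO1, AGO2, AGO3 and AGO4 and the 3 TNRC6 genes TNRC6A, TNRC6B and TNRC6C. They were found as all probe sets whose only gene symbol in the platform annotation was one of these names, which gave 33 of 54675 probe sets and 7 of 19775 genes. The arrays came from P3HR1 cells, an established Burkitt lymphoma B-cell line that carries Epstein-Barr virus, in 4 groups of 6. The groups were miR-28 cells and control cells after 24 h of induction, and miR-28 cells and control cells after 12 h. In miR-28 cells doxycycline switched on a pRTS1 vector that made green fluorescent protein (GFP) and the precursor of miR-28, and in control cells a pRTS1 vector that made GFP alone. Both genotypes carried the vector and received doxycycline, so there were no arrays of uninduced cells here. Each genotype was kept as 2 bulk populations, A and B, and each population was induced 3 times per time point. For all groups alike, one label field gives 0.1 ug/ml of doxycycline and another gives 1 ug/ml.

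Argonaute proteins hold a mature microRNA and use it to find messenger RNAs, mainly through pairing of the microRNA's seed with the 3' untranslated region. The TNRC6 proteins, also called GW182 proteins, bind Argonaute and recruit the CCR4-NOT and PAN2-PAN3 deadenylases, after which the target is repressed in translation, decapped and degraded. AGO2 is the Argonaute best known for cutting a fully paired target. An overexpressed microRNA has to be loaded into these same proteins, which is why their own transcripts were followed after induction of miR-28.

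The precursor gives a 5p and a 3p arm, and the 3p arm is shown first, followed by promoter windows of AGO1, AGO3 and TNRC6A, which had a probe set or gene called between genotypes. AGO2, also called between genotypes, and TNRC6C, called only between times in control cells, are named without a window. RefSeq (GRCh38.p14) places the mature hsa-miR-28-3p at chr3:188688834-188688855 on the plus strand. Its seed, bases 2 to 8 from the 5' end, is in capitals.
hsa-miR-28-3p: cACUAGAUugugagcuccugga

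RefSeq promoter windows of 300 bases, from 250 before to 50 after a start site, were taken for AGO1 (chr1:35882959-35883258), AGO3 (chr1:35930855-35931154) and TNRC6A (chr16:24729401-24729700), all on the plus strand. The start site of each window lies inside the outermost bounds that RefSeq annotates for the gene, so other transcripts may start elsewhere. AGO4, AGO1 and AGO3 lie one after the other on chromosome 1, and TNRC6A lies on chromosome 16. Capitals mark matches on either strand to 3 motifs, the GC box GGGCGG, the CCAAT box and the E-box CACGTG, which is the core sequence bound by MYC.
AGO1: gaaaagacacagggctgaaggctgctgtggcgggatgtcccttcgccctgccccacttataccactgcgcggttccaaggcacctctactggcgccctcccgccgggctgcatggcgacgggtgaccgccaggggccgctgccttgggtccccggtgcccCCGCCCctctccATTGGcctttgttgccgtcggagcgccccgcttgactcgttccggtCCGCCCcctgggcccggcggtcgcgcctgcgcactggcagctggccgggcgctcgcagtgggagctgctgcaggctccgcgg
AGO3: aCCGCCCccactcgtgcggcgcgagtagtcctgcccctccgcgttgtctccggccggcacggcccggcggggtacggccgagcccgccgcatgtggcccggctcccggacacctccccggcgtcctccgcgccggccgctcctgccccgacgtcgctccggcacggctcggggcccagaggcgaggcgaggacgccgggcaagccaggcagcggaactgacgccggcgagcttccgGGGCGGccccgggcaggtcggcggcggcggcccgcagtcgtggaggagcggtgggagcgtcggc
TNRC6A: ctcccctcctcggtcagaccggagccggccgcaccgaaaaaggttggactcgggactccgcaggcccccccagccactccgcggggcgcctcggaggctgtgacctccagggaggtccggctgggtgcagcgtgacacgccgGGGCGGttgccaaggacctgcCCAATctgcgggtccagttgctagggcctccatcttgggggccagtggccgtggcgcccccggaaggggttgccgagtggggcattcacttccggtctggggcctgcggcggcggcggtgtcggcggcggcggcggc
The AGO1 window held GGGCGG at 2 places and CCAAT at 1, the AGO3 window held GGGCGG at 2 places, and the TNRC6A window held GGGCGG and CCAAT once each. Of all 35116 RefSeq windows of this length, 45.0% held GGGCGG, 34.6% held CCAAT and 7.26% held CACGTG, which was in none of the 3 windows printed. These matches describe the letters only. The 3 windows were 72.3%, 80.0% and 73.7% G or C, against a median of 58.7% over all windows.

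The arrays were alike in scaling, with a 2% trimmed mean of 500.1 on each. B-cell markers were bright, with 5 of 5 above the filter on low values and a median intensity of 10054.5. Of the markers of other cells 1 of 6 T-cell, 2 of 6 myeloid, 2 of 6 NK-cell and 2 of 6 fibroblast or epithelial genes passed that filter, and the medians of these 4 lists were 40.0 to 50.4. Summed germinal centre markers, 5 of 5 above the filter, were 18159.9 to 22914 in miR-28 cells and 21467 to 26609 in control cells at 24 h, and 17233 to 19599 and 20988 to 26117 at 12 h; their part in the results was not tested. The ratio of 3' to 5' ACTB signal, a sign of RNA quality, stood out on control array B2 at 24 h (1.59 on the log2 scale) and miR-28 array B2 at 12 h (1.05). Each replicate was a further induction of the same population, and the p-values therefore rest on the spread among arrays, not on separately made populations as units. Population was a random block with a consensus correlation of -0.02, which did not widen the standard errors between genotypes. Without the block 531 of all genes were called at 24 h, against 609 with it, and 646 over both times, against 858. A difference between the populations of the 2 genotypes from before induction cannot be told apart from an effect of miR-28. In bulk RNA fewer cells that express a gene and less RNA per cell cannot be told apart either.

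All 7 genes were above the filter, a mean log2 intensity of 6.11, as were 26 of the 33 probe sets. The number of probe sets above it was 4 of 4 for AGO1, 1 of 1 for AGO2, 4 of 4 for AGO3, 2 of 4 for AGO4, 6 of 6 for TNRC6A, 7 of 7 for TNRC6B and 2 of 7 for TNRC6C. The 7 probe sets below it, 2 of AGO4 and 5 of TNRC6C, had mean intensities of 23.6 to 68.8 and were not tested. A gene was represented by its brightest probe set, and a change is a log2 fold change of intensity + 8 from limma, in miR-28 over control cells unless stated, given with its standard error. It was called at a Benjamini-Hochberg adjusted p under 0.05 over all 11380 genes, or over all 27306 probe sets where single probe sets are described. Intensities of different probe sets depend on their probes and are not set against each other.

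At 24 h of induction 3 of the 7 genes were called, AGO1 and AGO2 as lower and TNRC6A as higher in miR-28 cells. Of all genes tested 5.35% were called in this comparison, 2.75% as lower (313) and 2.60% as higher (296). With each array centred on its median the split over all genes was 149 lower and 395 higher. The median change of the 7 genes was 0.22, the value of AGO3, which was not called, against 0.02 over all genes. It was -0.14 over the 4 Argonaute genes and 0.29 over the 3 TNRC6 genes, and 4 of the 7 changes were above 0. At 12 h none of the 7 was called, when 0.536% of all genes were, and none of the 26 probe sets, when 0.165% of all probe sets were.

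AGO2 fell by 0.61 ± 0.14 at 24 h (log2, 6 against 6 arrays, limma adjusted p 0.0129). Only 1 probe set, 225827_at, carried AGO2 as its single symbol. In miR-28 cells at 24 h it read 1497 at the lowest, 1579 at the median and 1929 at the highest, against 1809, 2472 and 3289 in control cells. Of the 6 miR-28 arrays 5 lay below every control array, and the groups overlapped through 1 miR-28 array of population A and 1 control array of population B. Between populations of the same letter the change was -0.69 ± 0.20 for A and -0.52 ± 0.23 for B, neither passing the test on 3 against 3 arrays (adjusted p 0.236 and 0.373). No label pairs a miR-28 population with a control population, so the match by letter is arbitrary, here and below. At 12 h AGO2 averaged 1801 ± 304 in miR-28 cells and 2136 ± 377 in control cells (SD, n = 6), a change of -0.25 ± 0.14 that did not pass the test (adjusted p 0.633). The 24 h means were 1638 ± 169 and 2542 ± 575, so the order over the 4 groups put control cells at both times above miR-28 cells at both times, the 2 miR-28 groups lying within 1 SD of each other. The change held its sign in all 39 alternative analyses and stayed called in 36, the exceptions being the fits on population A alone, on population B alone and on population means. Among the 36, the mean of a gene's probe sets could not alter the AGO2 estimate. In the fit across all probe sets 225827_at stayed called in 30 of 38 alternatives.

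A further 3 probe sets carried the 2 symbols CASC7 and AGO2 in the annotation and were not counted as members. RefSeq lists CASC7 as another name of AGO2. At 24 h they gave -0.48 ± 0.14 (213310_at, adjusted p 0.0677), -0.11 ± 0.14 (225569_at, adjusted p 0.774) and -0.53 ± 0.35 (1561042_at, adjusted p 0.518). All had the sign of 225827_at and none was called. At 12 h the same 3 gave -0.26 ± 0.14, -0.39 ± 0.14 and -0.93 ± 0.35, none of them called. Averaged over both times, 213310_at was called at -0.37 ± 0.09 (limma adjusted p 0.0263), when 4.30% of all probe sets were. The other 2 were not, at -0.25 ± 0.10 (225569_at, adjusted p 0.171) and -0.73 ± 0.24 (1561042_at, adjusted p 0.0951).

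AGO1 fell by 0.50 ± 0.14 at 24 h (limma adjusted p 0.0369). On its brightest probe set, 218287_s_at, miR-28 cells read 504 at the lowest, 575 at the median and 673 at the highest, against 667, 793 and 1063 in control cells. Again 5 of the 6 miR-28 arrays lay below every control array, and 1 pair of arrays overlapped. Between populations of the same letter the change was -0.50 ± 0.23 for A and -0.50 ± 0.17 for B. At 12 h the means were 643 ± 102 in miR-28 cells and 801 ± 198 in control cells, a change of -0.29 ± 0.14 that did not pass (adjusted p 0.513). As for AGO2, the means of both miR-28 groups (579.7 ± 62.8 at 24 h) lay below those of both control groups (829 ± 143 at 24 h). The 12 h arrays overlapped, at 544 to 821 in miR-28 cells and 544 to 1108 in control cells. Between populations of the same letter the 12 h change was -0.02 ± 0.23 for A and -0.56 ± 0.17 for B.

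The AGO1 call at 24 h was close to the threshold. It was lost in 16 of 39 alternatives, with the change between -0.56 and -0.32 in all 39. Leaving out any 1 of 8 arrays of the 24 h groups, control A3, B1, B2 or B3 or miR-28 A2, A3, B2 or B3, gave an adjusted p of 0.0524 to 0.0836. In the fit across all probe sets, with more features to adjust over, 218287_s_at had an adjusted p of 0.0586. The other AGO1 probe sets also read lower at 24 h, by -0.35 ± 0.14 for 228120_at, -0.25 ± 0.20 for 222576_s_at and -0.19 ± 0.41 for the dim 239036_at, none of them called. At 12 h the first 2 of these were at -0.18 and -0.30 and 239036_at was at 0.67 ± 0.41.

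**Figure D1:**
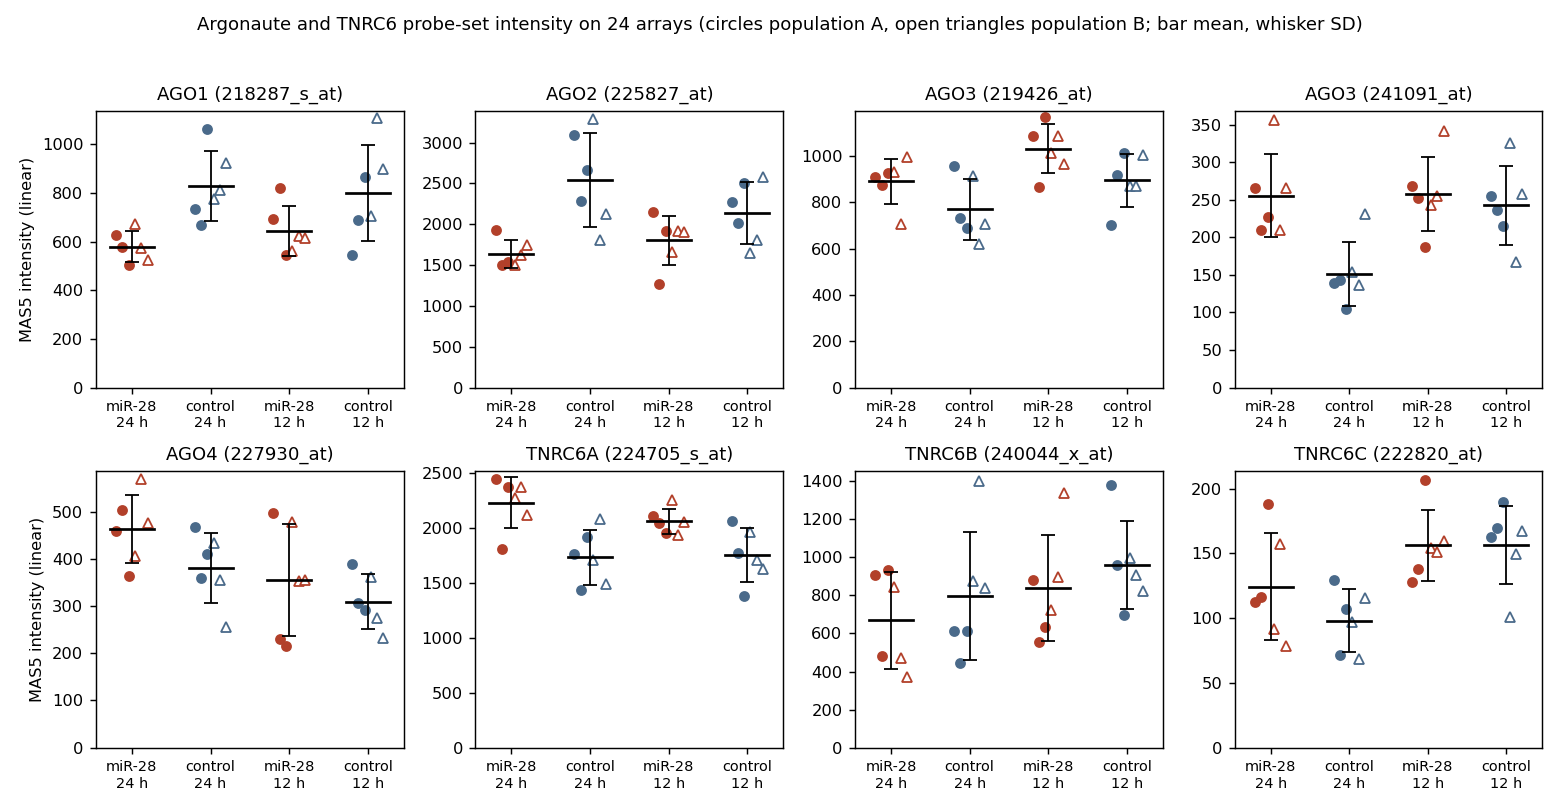
Each point is the MAS5 intensity (linear scale, from 0) of one array for the brightest probe set of each gene and for AGO3 241091_at, with circles for population A, open triangles for population B, and a bar and whisker for the mean and SD of 6 arrays. At 24 h 5 of 6 miR-28 arrays lie below all control arrays for AGO1 and AGO2, and 5 of 6 lie above them for TNRC6A, while TNRC6B spreads widely within groups.

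AGO3 and AGO4, which bind microRNAs but are usually described as lacking AGO2's strong cutting activity, read higher rather than lower in miR-28 cells. Neither was called as a gene at 24 h. The brightest AGO3 probe set, 219426_at, changed by 0.22 ± 0.11 (adjusted p 0.284), with 889.7 ± 98.5 in miR-28 cells and 769 ± 133 in control cells. At 12 h it read 1031 ± 106 in miR-28 cells and 895 ± 114 in control cells, a change of 0.21 ± 0.11 (adjusted p 0.572). AGO4 (227930_at) changed by 0.29 ± 0.19 at 24 h (adjusted p 0.443), with 462 ± 72.0 in miR-28 cells and 380.1 ± 74.5 in control cells, and by 0.14 ± 0.19 at 12 h, with 354 ± 119 and 309 ± 57.5. The groups of both genes overlapped at both times, and between the 2 populations lettered A alone AGO4 at 12 h was at -0.16.

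A second AGO3 probe set, 241091_at, was called at 24 h in the fit across all probe sets, at 0.74 ± 0.17 (adjusted p 0.0171). In that fit 4 of the 26 member probe sets were called, against 2.75% of all probe sets. It read 209 at the lowest, 246 at the median and 356 at the highest in miR-28 cells, against 105, 141 and 232 in control cells, and 3 of 6 miR-28 arrays were above every control array. The 12 h means were 258 ± 49.5 in miR-28 cells and 243 ± 52.6 in control cells (0.09 ± 0.17, adjusted p 0.958), so the group that stood apart was the control group at 24 h, at 152 ± 42.4. The effect of miR-28 at 24 h minus that at 12 h was 0.64 ± 0.25, with a p of 0.0166 that adjustment took to 0.751. Without miR-28 array B1 at 24 h the 24 h change was 0.64 with an adjusted p of 0.0518.

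All 4 AGO3 probe sets were above 0 at 24 h, with 228932_at at 0.38 ± 0.18 and 235782_at at 0.37 ± 0.21, and their mean taken as the gene gave 0.43 with an adjusted p of 0.00793. The same averaging ended the 24 h calls of AGO1 (-0.32, adjusted p 0.144) and TNRC6A (0.25, adjusted p 0.137). At 12 h the 4 AGO3 probe sets were split, 2 above and 2 below 0. Within groups these probe sets did not follow each other closely: r was 0.40 between 241091_at and 235782_at and between -0.22 and 0.00 for the other pairs, over 24 arrays that share their hybridizations. The second AGO4 probe set above the filter, 219190_s_at, was at 0.23 ± 0.22 at 24 h.

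TNRC6A, which bridges Argonaute to the deadenylases, rose by 0.37 ± 0.10 at 24 h (limma adjusted p 0.0272). Probe set 224705_s_at read 1811 at the lowest, 2318 at the median and 2440 at the highest in miR-28 cells, against 1432, 1735 and 2075 in control cells. Of the 6 miR-28 arrays 5 were above every control array, and 1 of population A was not. At 12 h the means were 2057 ± 117 in miR-28 cells and 1751 ± 245 in control cells, a change of 0.24 ± 0.10 that did not pass (adjusted p 0.405). Between populations of the same letter the change at 24 h was 0.37 ± 0.18 for A and 0.37 ± 0.14 for B. The call was lost in 11 of 39 alternatives, among them leaving out control array A2 or B3 or miR-28 array A1, A3, B1 or B2 of the 24 h groups (adjusted p 0.0537 to 0.0701). Averaging the 6 TNRC6A probe sets also ended it, at 0.25 with an adjusted p of 0.137. In the fit across all probe sets 224705_s_at stayed called in 13 of 38 alternatives.

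A second TNRC6A probe set, 224704_at, gave nearly the same size, 0.36 ± 0.09 at 24 h (adjusted p 0.0389 in the fit across probe sets, where 224705_s_at had 0.0492). It read 1492 ± 192 in miR-28 cells and 1157 ± 108 in control cells, again with 5 of 6 miR-28 arrays above every control array. Its call was lost without any 1 of 10 arrays, control A1 of the 12 h group, control A1, A3, B1 or B2 or miR-28 A1, A2, B1, B2 or B3 of the 24 h groups, with adjusted p of 0.0520 to 0.1000. Once group means were subtracted the 2 probe sets had an r of -0.22 over 24 arrays. Of the other 4 TNRC6A probe sets 3 were above 0 at 24 h (0.18 ± 0.13, 0.30 ± 0.20 and 0.58 ± 0.31) and 243834_at was at -0.31 ± 0.26, none called.

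TNRC6B, the paralog with the most probe sets above the filter, showed no called change. Its brightest probe set, 240044_x_at, carries the suffix that marks probes matching other sequences too. It averaged 668 ± 253 in miR-28 cells and 797 ± 336 in control cells at 24 h (-0.25 ± 0.26, adjusted p 0.681), and 839 ± 279.6 and 959.7 ± 231 at 12 h (-0.22 ± 0.26, adjusted p 0.886). Single arrays ranged from 370 to 935 in miR-28 cells and from 446 to 1402 in control cells at 24 h. Populations of the same letter gave 0.43 for A and -0.92 for B, signs that rest on this arbitrary match. The mean log2 intensities of populations A and B were 9.55 and 9.07 in miR-28 cells and 9.13 and 9.99 in control cells. Among all 7 probe sets 3 were above and 4 below 0 at 24 h, from -0.38 ± 0.17 (238468_at) to 0.34 ± 0.23 (229036_at), and at 12 h 2 were above and 5 below. Set 240044_x_at followed 1558142_at (r = 0.79 within groups, 24 arrays) and ran against 213254_at (r = -0.40).

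TNRC6C was dim, with 124 ± 41.3 in miR-28 cells and 98.1 ± 24.2 in control cells at 24 h on 222820_at, and 156 ± 27.3 and 157 ± 30.2 at 12 h. The changes were 0.29 ± 0.18 at 24 h (adjusted p 0.425) and 0.00 ± 0.18 at 12 h (adjusted p 0.998). Its only other probe set above the filter, 233359_at, went the other way at 24 h, at -0.79 ± 0.41 (adjusted p 0.358), with 5 of 6 miR-28 arrays below every control array. That set averaged 64.4 ± 27.4 in miR-28 cells, close to the filter, and 109 ± 18.2 in control cells.

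**Figure D2:**
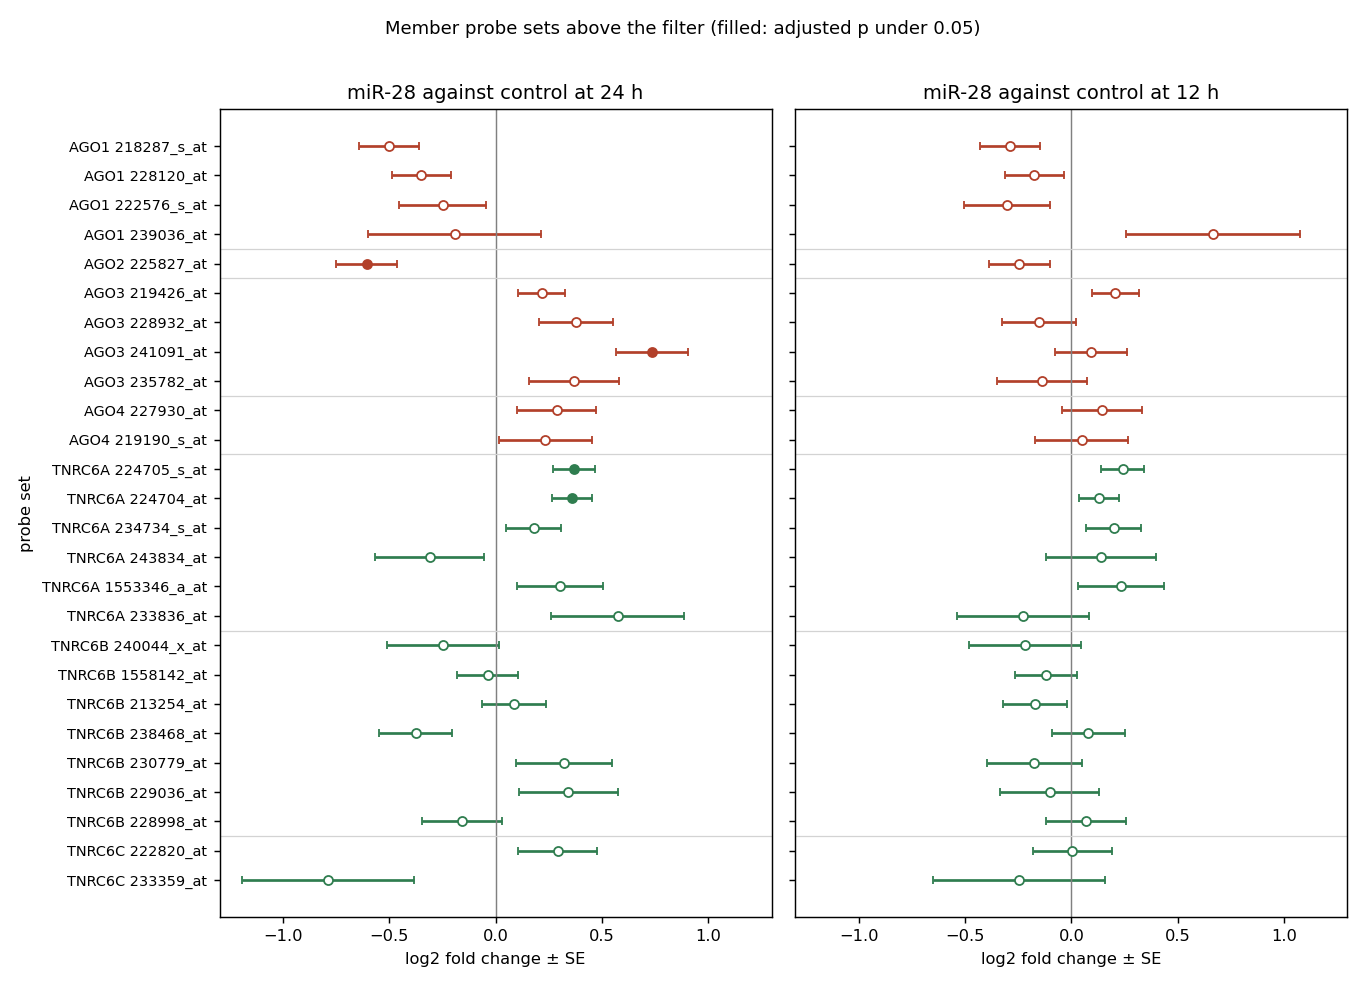
Log2 fold change with standard error of the 26 member probe sets above the filter, miR-28 against control cells at 24 h (left) and 12 h (right), red for Argonaute and green for TNRC6 genes, filled where the adjusted p over all probe sets was under 0.05. At 24 h all 4 AGO1 sets and the AGO2 set lie below 0, all 4 AGO3 and both AGO4 sets lie above it, and 4 sets are filled; at 12 h none is.

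Averaged over both times, which uses 12 against 12 arrays, the same 3 genes were called. AGO2 was at -0.43 ± 0.10 (limma adjusted p 0.00921), AGO1 at -0.40 ± 0.10 (adjusted p 0.0122) and TNRC6A at 0.31 ± 0.07 (adjusted p 0.00598). In this comparison 7.54% of all genes were called, 3.55% as lower and 3.99% as higher, so the background share was larger too. AGO3 came next at 0.21 ± 0.07 with an adjusted p of 0.0861. These 3 calls stood in 36, 35 and 35 of the 39 alternatives for AGO2, AGO1 and TNRC6A. With the mean of each gene's probe sets AGO1 was at -0.17 (adjusted p 0.250) and TNRC6A at 0.18 (adjusted p 0.0914), neither called. For AGO2 this averaging could not alter the estimate, as only 1 probe set carried AGO2 as its single symbol. Across probe sets 5 of 26 were called, against 4.30% of all, namely 218287_s_at of AGO1 (adjusted p 0.0192), 225827_at of AGO2 (0.0139), 241091_at of AGO3 (0.0402) and 224705_s_at and 224704_at of TNRC6A (0.0110 and 0.0288).

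No member passed the test of whether the miR-28 effect differed between times, and limma called 0 of all genes and 0% of all probe sets there, although 787 genes had an unadjusted p under 0.05. The estimates at 24 h minus 12 h were -0.36 ± 0.21 for AGO2 (p 0.0983), -0.21 ± 0.20 for AGO1 and 0.13 ± 0.14 for TNRC6A. A call at 24 h beside none at 12 h therefore does not show that these genes changed more at 24 h. No member probe set had groups of 6 arrays that did not overlap between miR-28 and control cells at either time, which 2.46% of all probe sets had at 24 h and 0.670% at 12 h.

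**Figure D3:**
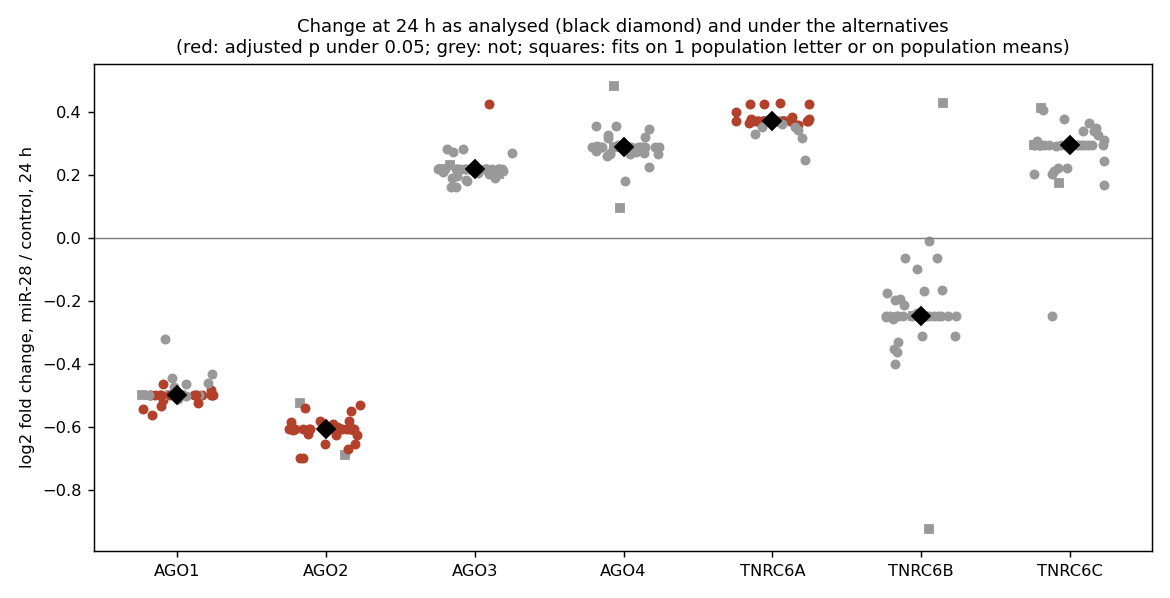
Change at 24 h (log2, miR-28 over control) of the 7 genes as analysed (black diamond) and under each alternative analysis, red where the adjusted p was under 0.05 and grey where not, with squares for fits on a single population letter or on population means. AGO1 and AGO2 lie below 0 and AGO3, AGO4 and TNRC6A above it under every alternative, while TNRC6B and TNRC6C fall on both sides.

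The comparison of 24 h with 12 h of induction asked how the members moved with time in each genotype. In miR-28 cells none of the 7 genes was called, against 4.66% of all genes, and none of the 26 probe sets, against 1.88%. The largest estimate on a gene was AGO4, at 0.43 ± 0.19 (adjusted p 0.220), and TNRC6B 238468_at came closest among probe sets, at -0.68 ± 0.18 (adjusted p 0.0521). It averaged 340.4 ± 88.7 at 24 h and 553 ± 160 at 12 h in miR-28 cells. All 7 TNRC6B probe sets were lower at 24 h than at 12 h in miR-28 cells, and likewise in control cells.

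In control cells TNRC6C was the only member gene called, at -0.64 ± 0.19 (24 h over 12 h, limma adjusted p 0.0460), against 6.14% of all genes. The other TNRC6C probe set above the filter, 233359_at, was at 0.35 ± 0.42, and the mean of both was at -0.15 (adjusted p 0.770). This call was lost in 23 of 38 alternatives, 15 of which left out 1 array, with an adjusted p of 0.0503 to 0.105: control A1, A2, A3, B2 or B3 or miR-28 A2, B1, B2 or B3 at 12 h, and control A2, A3, B1 or B2 or miR-28 A1 or A2 at 24 h. Among probe sets AGO3 241091_at was called, at -0.66 ± 0.18 (adjusted p 0.0404), against 3.09% of all. It lost its call without control A1, A2, B1 or B3 at 12 h or control A1, A2, A3, B1 or B2 at 24 h (adjusted p 0.0531 to 0.108). All 4 AGO3 probe sets were lower at 24 h in control cells.

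One member probe set had groups that did not overlap in time. TNRC6B 213254_at read 288 to 566 in control cells at 24 h and 589 to 734 at 12 h, a change of -0.50 ± 0.16 (adjusted p 0.0877). The lowest 24 h value came from control array B2, the one with the highest ACTB ratio. Of all probe sets 2.81% had groups that did not overlap in this comparison and 2.57% in that of miR-28 cells, where no member did. Between 24 h and 12 h AGO1 and AGO2 were at 0.07 ± 0.14 and 0.24 ± 0.15 in control cells and at -0.14 ± 0.14 and -0.12 ± 0.15 in miR-28 cells, none called.

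The partners of these proteins were taken as 86 genes in 7 lists, of which 75 were above the filter. At 24 h 1 of the 75 was called, against 5.35% of all genes, and at 12 h none, against 0.536%, with 42 of 75 changes above 0 at 24 h and a median of 0.02, against 0.02 over all genes. The called gene was DICER1, the enzyme that cuts the precursor into the mature duplex, in the list of microRNA processing genes (1 of 9 rose, none fell). It rose by 0.68 ± 0.10 at 24 h (limma adjusted p 0.000279), with 5225 ± 805 in miR-28 cells and 3256 ± 418 in control cells. The other DICER1 probe sets gave 0.54 ± 0.13 (212888_at, adjusted p 0.0175), 0.32 ± 0.10 (206061_s_at, adjusted p 0.0933) and -0.14 ± 0.57 (216260_at) at 24 h.

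Averaged over both times 2 of the 75 partners were called, both as higher, against 7.54% of all genes. Beside this share and those of 5.35% at 24 h and 0.536% at 12 h, 0 or 1 call in a short list says little about that list. In the CCR4-NOT list none of 14 was called at 24 h or 12 h. Over both times 1 rose, BTG1, an antiproliferative protein that binds the deadenylase subunits, at 0.21 ± 0.05 (adjusted p 0.0115). Its second bright probe set, 200921_s_at, was at 0.12 ± 0.06. The scaffold CNOT1 was at 0.06 ± 0.07 and the deadenylases CNOT6L and CNOT7 at 0.32 ± 0.12 and 0.06 ± 0.07 at 24 h, none called. Of 5 PAN2-PAN3 and poly(A)-binding genes none was called between genotypes, the smallest p being that of PAIP2, a regulator of poly(A)-binding protein (0.07 ± 0.04 over both times, adjusted p 0.375). Of 17 decapping and 5' decay genes none was called, with LSM5, a subunit of the LSM ring that binds the ends of deadenylated transcripts, nearest at 0.15 ± 0.06 over both times (adjusted p 0.150).

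Among 4 translational repression genes none was called, and EIF4ENIF1, the eIF4E transporter of processing bodies, was nearest at -0.14 ± 0.05 over both times (adjusted p 0.116). Of 15 Argonaute-associated or loading genes none was called. FMR1, the fragile X RNA-binding protein, had the list's smallest adjusted p at 24 h (0.34 ± 0.14, adjusted p 0.179). HSP90AA1 and HSP90AB1, the chaperones that help load Argonaute, were at -0.14 ± 0.09 and -0.16 ± 0.08. Over both times the list's smallest adjusted p was 0.175. Of 11 genes of Argonaute and microRNA turnover none was called. TENT2, a poly(A) polymerase that adds nucleotides to microRNA ends, was nearest, at 0.49 ± 0.16 at 24 h (adjusted p 0.0779).

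Between 24 h and 12 h 4 of the 75 partners were called in miR-28 cells, against 4.66% of all genes, and 6 in control cells, against 6.14%. In miR-28 cells DICER1 (0.37, adjusted p 0.0448) and ELAVL1, an RNA-binding protein (0.29, adjusted p 0.0174), rose, while BTG1 (-0.48, adjusted p 0.000839) and the deadenylase PAN2 (-0.43, adjusted p 0.0396) fell. In control cells 4 rose, namely CNOT9, a CCR4-NOT subunit (0.38), FKBP4, a co-chaperone of HSP90 (0.47), MOV10, an RNA helicase (0.98), and ELAVL1 (0.30), and 2 fell, BTG1 (-0.45) and the helicase DDX6 (-0.41), with adjusted p of 0.000667 to 0.0382.

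**Figure D4:**
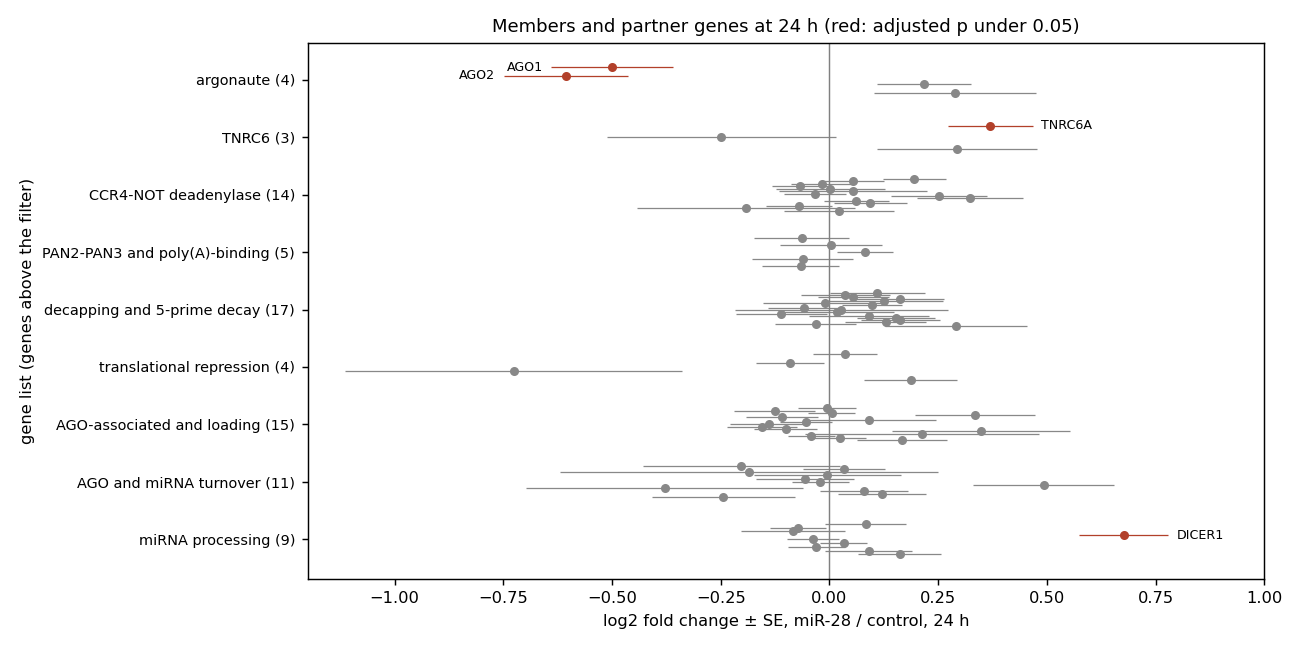
Log2 fold change with standard error at 24 h (miR-28 over control) of the 7 members and of 75 partner genes, one row of points per list, red and named where the adjusted p over all genes was under 0.05. AGO1, AGO2, TNRC6A and DICER1 are red, and no deadenylase, decapping or loading gene is. Above 0 lie 9 of 14 CCR4-NOT genes, 13 of 17 decapping and 5' decay genes and 7 of 15 Argonaute-associated or loading genes.

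Among genes outside the 7, those whose levels followed a member most closely were found by Pearson's r over the 24 arrays after subtracting group means. The points share hybridization and RNA preparation, and r is given as a description. AGO2 was followed by TRAIP (r = 0.75), PIK3R1 (0.70) and ANKRD36B (0.69), and AGO1 by WARS1 (0.72), PARP12 (0.71) and TGFBR2 (0.68). TNRC6A was followed by CAAP1 (0.86), CCDC91 (0.79) and GOLPH3 (0.79), and TNRC6B by GOLIM4 (0.87), ITCH (0.85) and YY1 (0.82). AGO4 was followed by BACH2 (0.82), MARCHF6 (0.80) and FAM120A (0.79), AGO3 by ZNF837, ANKRD13D and DAGLB (0.72, 0.72 and 0.71), and TNRC6C by CHLSN, CT75 and ICAM3 (0.72, 0.69 and 0.69).

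With group differences left in, the closest gene was WARS1 for AGO1 (r = 0.80), SRRM2 for AGO2 (0.74), UBE2H for AGO3 (0.76), FAM120A for AGO4 (0.78), GSPT2 for TNRC6A (0.80), RIT1 for TNRC6B (0.79) and FDX2 for TNRC6C (0.75). Between members, with group means subtracted, r was highest for AGO2 and AGO3 (0.61) and for TNRC6A and TNRC6B (0.55) and lowest for AGO3 and TNRC6A (-0.40). AGO1 and AGO2, which both read lower in miR-28 cells, had an r of -0.15 within groups.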

How the data were processed

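RNA of 24 cultures was measured on Affymetrix arrays. The authors deposited 1 linear intensity per probe set and array, computed with MAS5 per the submitters' processing notes, with version and settings not given in the sources used here. Arrays have no sequencing depth; their number limits precision.

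The scale used was log2(intensity + 8) with the authors' scaling kept, after leaving out 62 control probe sets. Features were kept above the median of all probe sets. Gene symbols came from the platform annotation, updated through RefSeq. R 4.3.3 with limma 3.58.1 (and statmod 1.5.0) fitted 1 mean per genotype and time, with bulk population as a random block (consensus correlation -0.02), once over genes and once over probe sets, and tested from both sides with Benjamini-Hochberg adjustment. The fit was tested on simulated data. Figures were drawn with matplotlib 3.10.9. Named partner genes are, per list, the called ones, or the one with the smallest p; CNOT1, CNOT6L, CNOT7, HSP90AA1 and HSP90AB1, the partners called with time and single probe sets were chosen after their values were seen. Likeness names the 3 genes of highest r, plus 1 without subtraction.

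The members, lists and tests were chosen with earlier results of these data known. The alternatives were 15 changes of pseudocount, filter, scaling, block, unit, array set or weights and leaving out each of the 24 arrays.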

Additional observations from a re-analysis of the deposited data

Results flagged for a closer look

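In 104 groups of 6 arrays (26 member probe sets in 4 groups), 7 had 1 array far from the other 5 by Dixon's test, and chance flags about 5% of groups. In miR-28 cells these were AGO3 219426_at at 24 h (array B2 at 704.6, the others 875 to 993) and TNRC6A 1553346_a_at at 12 h (B2 at 135, the others 175 to 202). In control cells at 24 h they were TNRC6B 213254_at (B2 at 288, the others 460.1 to 566) and AGO4 219190_s_at (A2 at 45.6, the others 101 to 129). In control cells at 12 h they were TNRC6B 228998_at (B1 at 150.3, the others 244 to 317), TNRC6A 233836_at (A2 at 61.3, the others 142 to 217) and AGO3 235782_at (B3 at 158, the others 216 to 241). All 7 arrays were the lowest of their group, on a log scale that spreads low intensities further apart than high ones. Control array B2 at 24 h and miR-28 array B2 at 12 h are also the 2 of highest ACTB ratio, and the part of RNA quality in these values was not tested.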

How the results depend on the processing

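All 39 alternatives kept the sign of AGO1, AGO2 and TNRC6A at 24 h and over both times, and in the fit over genes the call at 24 h held in 23, 36 and 28 of them. No member was called at 12 h or for the difference between times under any. In the following, counts are of called members and the cause was not tested unless given. At 24 h 1 gene was called without the filter, when 368 of all genes were. On population means, population A alone and population B alone 0 members were called, when 0, 48 and 38 of all genes were. These fits have fewer samples, and the part of this in the lost calls was not tested. Leaving out 1 array gave 1 to 3, with 1 without control B3 or miR-28 A3 or B2. Over both times 0 members were called on population means, population A alone or population B alone, when 0, 83 and 97 of all genes were. For 24 h against 12 h in control cells 0 genes were called without the filter, with a 75th percentile filter (which drops TNRC6C), with median centring, on population means or either population alone, with an intensity trend and without the 2 arrays of highest ACTB ratio, 2 with the mean of each gene's probe sets (AGO3 at -0.48 and TNRC6B at -0.41, while TNRC6C lost its call at -0.15), and 0 to 1 with 1 array left out. Of all genes 364 were called there without the filter, 896 with the 75th percentile filter, 421 with median centring and 825 with an intensity trend. With the mean of probe sets 612 were, and on population means, population A alone and population B alone 0, 17 and 34.

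Of member probe sets at 24 h 0 were called without the filter, on population means or either population alone, and 0 to 4 with 1 array left out (0 without miR-28 B1, 1 without control A1 or B1, 2 without miR-28 A1, A2, B2 or B3). Over both times 2 were called without the filter, 3 without the population block, 0 on population means or either population alone, and 3 to 5 with 1 array left out. For time in miR-28 cells 1 was called with the 75th percentile filter, quantile normalization, no population block, an intensity trend or array weights, and 0 to 1 with 1 array left out. For time in control cells 0 were called without the filter, with quantile normalization or median centring, on population means, either population alone or without the 2 ACTB arrays, and 0 to 2 with 1 array left out. In the main fit 2.75% of all probe sets were called at 24 h, 4.30% over both times, 1.88% for time in miR-28 cells and 3.09% for time in control cells. Shares of all probe sets under the alternatives are not given, so these counts describe the members only.

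With the replicate label as a block the member probe sets called were 2 at 24 h, 3 over both times, 1 for time in miR-28 cells and 2 for time in control cells. The shares of all probe sets with this block are not given, so these counts describe the members only. The member genes called were 2 at 24 h, when 617 of all genes were, and AGO1 had an adjusted p of 0.0718. The labels do not pair the arrays: same-label deviations had r of -0.09 to 0.12, with 1 pair of 36 above 0.1.

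Signs turned for uncalled values. In population A alone AGO4 was at -0.16 at 12 h and -0.035 over both times, TNRC6C at -0.16 at 12 h, and TNRC6B at 0.43 at 24 h and 0.13 for time in miR-28 cells. In population B alone TNRC6B was at 0.075 at 12 h and 0.15 for time in control cells, and AGO1 at -0.090 for time in control cells. The mean of the probe sets ended the calls of AGO1 and TNRC6A at 24 h and over both times. With it TNRC6C was at -0.12 at 12 h, -0.25 at 24 h and -0.18 over both times, and TNRC6A at -0.027 for time in miR-28 cells. TNRC6C at 12 h was at -0.0098 with quantile normalization, -0.022 with median centring, and -0.11 to 0.065 with 1 array left out. For time in control cells, leaving out 1 array gave -0.035 to 0.17 for AGO1 and -0.083 to 0.034 for TNRC6A. TNRC6C and some AGO3 and AGO4 probe sets are dim, which limits their precision.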
